A study of Mus musculus with 6 samples.

Results

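Sarm1 and the genes that control neuronal NAD after axonal injury were examined in the mouse ganglion cell layer at 6 hrs after optic nerve crush. The group has 8 genes, which are Sarm1, Nmnat1, Nmnat2, Nmnat3, Nampt, Mycbp2, Fbxo45 and Ube4b. All probe sets whose platform gene symbol is one of these were taken, which gave 23 of the 45037 probe sets of the array that are not manufacturer's controls. Of these, 20 had a mean intensity of at least 40 over all arrays and were tested, in a fit over all 33169 probe sets of the array that reached that mean, which stand for 15103 genes. Sarm1 has 3 probe sets and Nmnat1 has 2, of which 1 each was tested. Nmnat2 has 1, Nmnat3 and Fbxo45 have 2, Nampt and Ube4b have 3 and Mycbp2 has 7, all tested.

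Gene expression was measured in male C57BL/6J mice on 6 arrays, 1 per eye. The 3 crush eyes had their optic nerve crushed with forceps, and the 3 control eyes were the uninjured contralateral eyes. About 6000 cells of the ganglion cell layer were laser captured from frozen sections of each eye, and their RNA was amplified before hybridization. Crush eye 1 was paired with control eye 1, and so on by eye number. Besides retinal ganglion cells (RGCs), glia, vessels and displaced interneurons lie in this layer, so that fewer RGCs and less RNA per RGC cannot be told apart in these values. A control eye shares its animal with a crush eye and is not an eye of an uninjured mouse.

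SARM1 is an enzyme that breaks down NAD when an axon is injured, and its loss delays the degeneration of cut axons. NMNAT enzymes make NAD from nicotinamide mononucleotide (NMN), with NMNAT1 in the nucleus, NMNAT2 in the Golgi and axon, and NMNAT3 in mitochondria. NMNAT2 is short lived and must be supplied to the axon from the soma, so that its supply stops at a lesion, and NMN then accumulates while NAD falls, which activates SARM1. NAMPT makes the NMN. MYCBP2, also known as PHR1, is a ubiquitin ligase that lowers NMNAT2 and acts with the F-box protein FBXO45. UBE4B is a ubiquitin chain elongation factor whose amino-terminal part is fused to NMNAT1 in the slow Wallerian degeneration (WldS) mouse.

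In the data, 18 of the 20 tested probe sets of these genes did not pass an unadjusted p under 0.05 from limma, with eye number as a block. The other 2, both for Mycbp2, were higher after crush. Among all tested probe sets 7.68% passed that threshold, 5.16% higher and 2.51% lower. None of the 20, and 0% of all tested probe sets, passed a Benjamini-Hochberg adjusted p under 0.05. The study's limits on size, a ratio of means over 1.2 and a difference of means over 80, were also applied. The same 2 passed these with limma's unadjusted p under 0.05, which here took the place of the study's own paired test, against 3.12% of all tested probe sets, 2.58% as higher. With the study's paired test and these limits 1 of them passed (1445340_at) and 1447150_at did not. The median log2 fold change of the 20 was 0.00, with 10 above 0 and 10 below, beside -0.01 and 48.9% above 0 over all tested probe sets. By the brightest probe set of each gene, 3 genes were above 0 and 5 below, with a median of -0.02 beside -0.02 over all genes. Of the 8 genes 1 (Sarm1) was higher in all 3 pairs, against 15.2% of all genes, and 2 (Nmnat1 and Fbxo45) were lower in all 3, against 15%. None of the 8 passed an unadjusted p under 0.05 by its brightest probe set, against 5.03% of all genes.

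**Figure D1:**
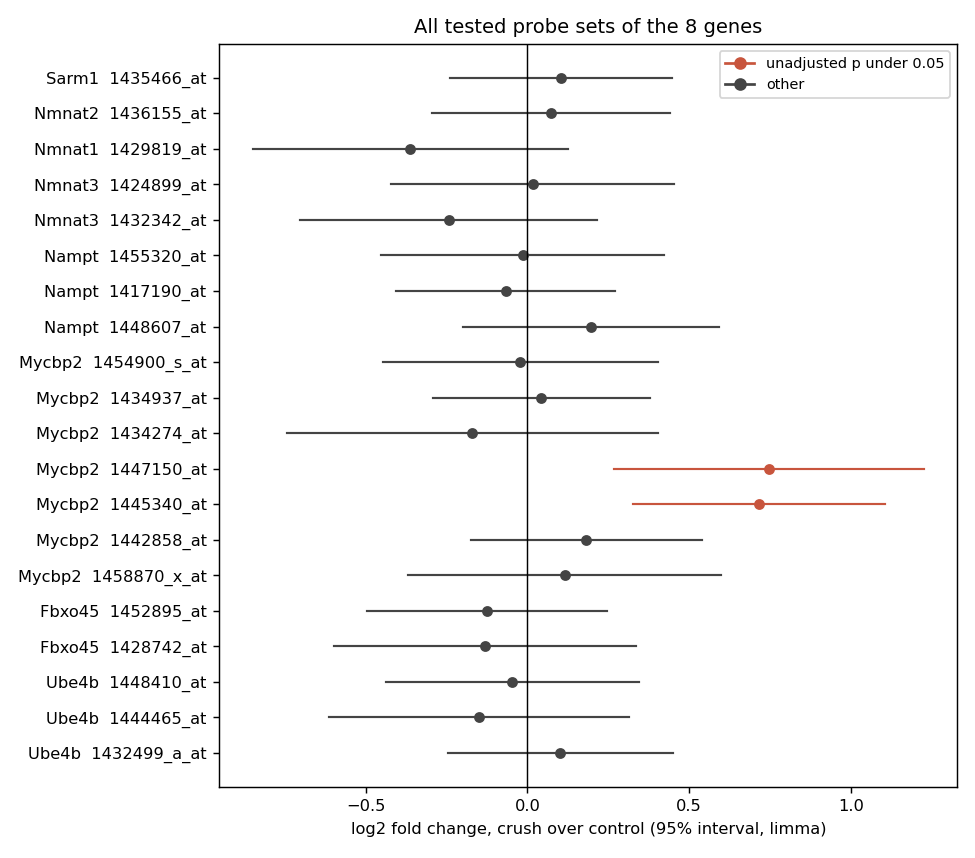
Log2 fold change, crush over control, of the 20 tested probe sets, grouped by gene and ordered within a gene from brightest to dimmest. Points are limma estimates and lines are 95% intervals. The intervals of 2 Mycbp2 probe sets lie above 0 and the other 18 include 0.

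Several arrays stood apart, and this bears on each value. The array of crush eye 2 lay alone on the first principal component (44.2% of the variance), and the array of crush eye 3 did so on the second component (27.8%). The array of crush eye 2 gave the lowest intensity for 8 of the 20 tested probe sets of these genes and for 34.6% of all tested probe sets. Median intensities were 131.2 to 153.9 on crush arrays and 141 to 142.6 on control arrays. Ratios of 3′ to 5′ control probe sets were 7.21 to 10.5 in crush eyes and 6.65 to 8.80 in control eyes for Actb, and 4.62 to 7.54 and 5.13 to 6.61 for Gapdh. Markers of RGCs were present, with 17 of 18 listed genes tested, among them the surface protein Thy1, whose mean intensity was 9175 ± 774 over crush eyes and 8889 ± 274 over control eyes (SD, n = 3 in both groups). Rod and cone markers were present as well, with 10 of 12 listed genes tested. Among these Sag was at 10314 ± 1023 over crush eyes and 10067 ± 1479 over control eyes. Of the 10 rod and cone markers 9 were above 0, against 45.7% of all genes. Opn1mw (log2 fold change 0.87) was the 1 with an unadjusted p under 0.05 from limma. Markers of other cells moved in part with the groups, none of them past an adjusted p under 0.05. Over all genes 2.76% were higher and 2.27% lower by an unadjusted p under 0.05 from limma. All 10 Muller cell markers were below 0 (1 with an unadjusted p under 0.05 from limma), with sums of 55444 to 56885 in crush eyes and 58028 to 65746 in control eyes. All 6 tested bipolar cell markers were below 0 (3 with such a p, Gng13, Cabp5 and Lhx4), with sums of 10836 to 12925 in crush eyes and 13400 to 15766 in control eyes. Of 10 amacrine cell markers 9 were below 0 (0 with such a p), with sums of 32117 to 37382 in crush eyes and 36842 to 41394 in control eyes. The part of these markers in the values of the 8 genes was not tested.

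Sarm1 was little different between the groups. Its tested probe set (1435466_at) had intensities of 173.6, 152.2 and 162.6 in crush eyes 1 to 3, against 152.3, 142.8 and 159.2 in control eyes 1 to 3. The crush eye was the higher in each of the 3 pairs, but the groups overlapped, with crush eye 2 at the level of control eye 1. The log2 fold change was 0.10 (standard error 0.14, adjusted p = 0.835 from limma), and its 95% interval was -0.24 to 0.45. Differences were higher in all 3 pairs for 17.6% of all tested probe sets. The 95% interval is for the intensity of this 1 probe set in a mixed layer, and it sets no limit on the change of Sarm1 mRNA in RGCs. Leaving out each pair in turn gave log2 fold changes of 0.06 to 0.14. The remaining probe sets of Sarm1 were too dim for the test. One (1445644_at) had 39.3, 30.2 and 56.6 in crush eyes and 24.1, 33.7 and 44.7 in control eyes. The dimmest (1457450_at) was at 1, a value shared by many low probe sets of the deposited table, on 5 of the 6 arrays and at 22.3 on the array of crush eye 2.

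Nmnat2 encodes the NMNAT that the axon depends on, and was measured by a single probe set (1436155_at). Its intensities were 662.3, 513.6 and 486.7 in crush eyes and 557, 542.6 and 470.6 in control eyes. Crush eye 1 was above all control eyes and the other 2 lay within their range. The log2 fold change was 0.07 (standard error 0.14, adjusted p = 0.896 from limma), with a 95% interval of -0.29 to 0.44. The pairs did not share a direction, at 0.25, -0.08 and 0.05 on the log2 scale. Without pair 1 the log2 fold change was -0.02. Markers of RGCs moved with pair 1 in the same way, with a median log2 difference of 0.20 and 0 of 17 lower in pair 1, -0.20 and 13 of 17 lower in pair 2, and -0.13 and 11 of 17 lower in pair 3. Of all 15103 genes, 7079, 9229 and 6460 were lower in pairs 1 to 3. The RGC markers had a summed intensity of 69563 to 87568 in crush eyes and 77875 to 80101 in control eyes. Their part in the Nmnat2 values was not tested.

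The relation of Nmnat2 to Sarm1 was compared within arrays, since the balance between these enzymes is thought to set axon survival. The log2 difference of Nmnat2 less that of Sarm1 was 0.06, -0.17 and 0.02 in pairs 1 to 3, with a mean of -0.03 ± 0.12 (SD). An exact permutation test over the pairs, two-sided, gave p = 1.0, where the smallest p that 3 pairs allow is 0.25. The sign differed between pairs, and the mean was smaller than their spread.

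Nmnat1 had the lowest log2 fold change of the 8 genes. Its tested probe set (1429819_at) was at 187.7, 98.9 and 145.3 in crush eyes and 190.5, 170.7 and 176.2 in control eyes. Crush eyes 2 and 3 were below every control eye, whereas crush eye 1 was within the control range. The log2 fold change was -0.36 (standard error 0.19, adjusted p = 0.651 from limma), with a 95% interval of -0.85 to 0.12. On the log2 scale pair 1 gave -0.02, pair 2 gave -0.79 and pair 3 gave -0.28, and 14.2% of all tested probe sets were below 0 in all pairs. Without pair 2, in which the array of crush eye 2 stood apart, the value was -0.15, and without the array of crush eye 2 alone, with no pairing, it was -0.12. The dim probe set of Nmnat1 (1425773_s_at), which was not tested, had 26.0, 47.4 and 45.9 in crush eyes and 27.9, 8.92 and 49.5 in control eyes.

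Nmnat3 had no shared direction. Its brighter probe set (1424899_at) was at 136.0, 87.9 and 162.7 in crush eyes and 136.1, 107 and 129.1 in control eyes, a log2 fold change of 0.02 (standard error 0.17). Its pairs went both ways, with -0.28 in pair 2 and 0.33 in pair 3 on that scale. The dimmer probe set (1432342_at) had 59.0, 35.0 and 58.5 in crush eyes and 65.8, 53.9 and 56.4 in control eyes, a log2 fold change of -0.24. Crush eye 2 was the lowest array for both.

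**Figure D2:**
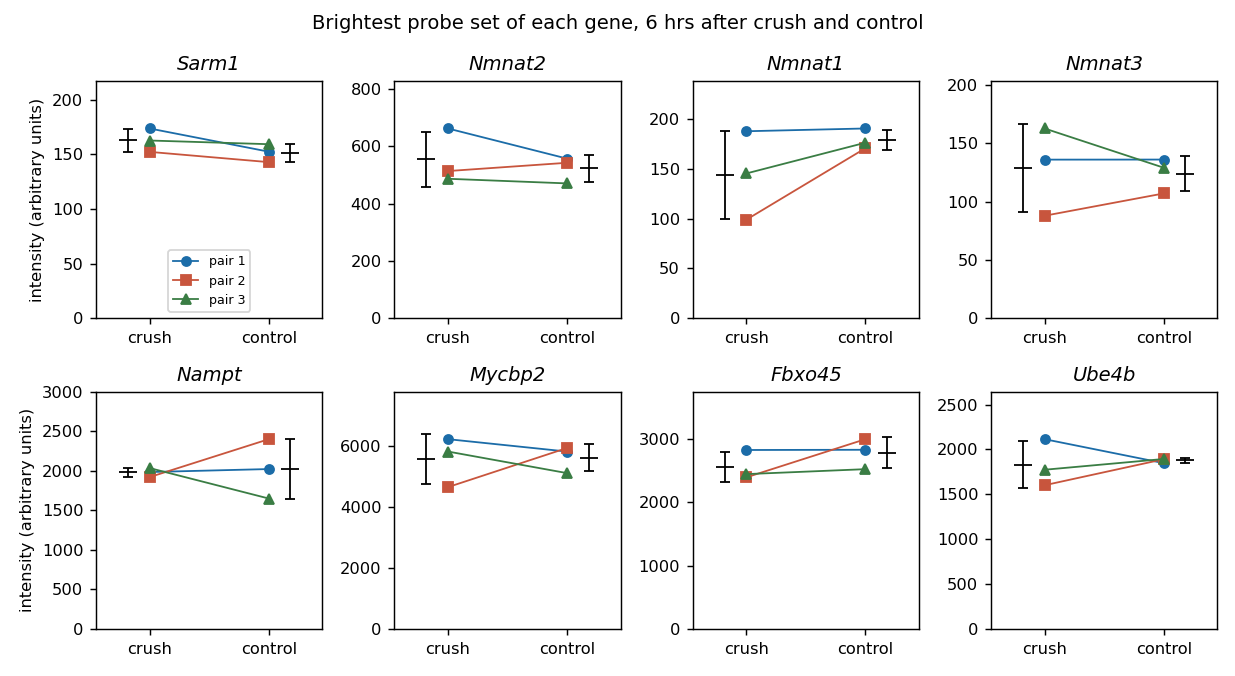
Array intensity in arbitrary units, on linear axes from 0, of the brightest probe set of each gene. Lines join the crush and control eye of a pair, and black marks beside them are the group mean with SD (n = 3 eyes each). Crush and control values overlap in all 8 panels, and for Sarm1 the crush eye is the higher in each pair.

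Nampt, the enzyme of the salvage pathway that recycles nicotinamide, was measured by 3 probe sets. The brightest (1455320_at) had 1985, 1921 and 2035 in crush eyes and 2023, 2401 and 1650 in control eyes. Crush eyes lay inside the range of control eyes, and the log2 fold change was -0.02 (standard error 0.17, adjusted p = 0.985 from limma), with a 95% interval of -0.45 to 0.42. The next (1417190_at) had 1412, 1468 and 1447 in crush eyes and 1524, 1496 and 1514 in control eyes. Here the groups did not overlap, and crush eyes were lower in all pairs, by a log2 fold change of -0.07 (adjusted p = 0.895 from limma). A lower level in crush eyes with no overlap was seen in 5.25% of all tested probe sets. An exact permutation test over the pairs, two-sided, gave p = 0.25 for this probe set, the smallest that 3 pairs allow. The dimmest (1448607_at) had 59.6, 73.6 and 89.5 in crush eyes and 61.2, 64.1 and 66.5 in control eyes, a log2 fold change of 0.20, so that the probe sets of Nampt did not share a direction.

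Mycbp2 gave the largest log2 fold changes of the 20 tested probe sets, on 2 of its 7 probe sets. The first of them (1447150_at) had intensities of 742.2, 1076 and 1382 in crush eyes 1 to 3, against 597.8, 568.4 and 688.0 in control eyes 1 to 3. All crush eyes were above all control eyes, and the difference was smallest in pair 1. The log2 fold change was 0.75 (standard error 0.19, unadjusted p = 0.00986, adjusted p = 0.642 from limma), with a 95% interval of 0.27 to 1.23. The log2 differences were 0.31, 0.92 and 1.01 in pairs 1 to 3. Without pair 3 the log2 fold change was 0.62 and its unadjusted p from limma was 0.0545.

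The second (1445340_at) had 345.0, 484.1 and 518.2 in crush eyes and 234.9, 248.2 and 334.9 in control eyes. The groups did not overlap here either, which was the case, with crush eyes higher, for 7.29% of all tested probe sets. Its log2 fold change was 0.72 (standard error 0.15, unadjusted p = 0.00487, adjusted p = 0.642 from limma), with a 95% interval of 0.33 to 1.11 and log2 differences of 0.55, 0.96 and 0.63 in pairs 1 to 3. Without pair 1, 2 or 3 the log2 fold change was between 0.59 and 0.80. An exact permutation test over the pairs, two-sided, gave p = 0.25 for each of these Mycbp2 probe sets, which any probe set that is higher in all pairs reaches. A log2 fold change at least as far from 0 as that of 1445340_at was seen in 3.63% of all tested probe sets. Without the array of crush eye 2 and with no pairing the log2 fold changes of the 2 probe sets were 0.72 and 0.65, and without that of crush eye 3 they were 0.54 and 0.60. Markers of the pigment epithelium, which lies outside the captured layer, mostly differed in the same direction. Of 6 listed 5 were tested, and Best1 had a log2 fold change of -0.01. Of the 5, 3 (Ttr, Rgr and Lrat) were higher with an unadjusted p under 0.05 from limma, against 2.76% of all genes. The list had median log2 differences of 0.52, 0.49 and 1.84 in pairs 1 to 3. Its summed intensity was 2446 to 9054 in crush eyes and 977.2 to 1499 in control eyes. Markers of rods and cones, with 10 of 12 tested, had medians of -0.12, 0.02 and 0.78 in these pairs. Their sums were 41970 to 50498 in crush eyes and 32770 to 55484 in control eyes. Of 4 tested astrocyte markers 2 were higher with an unadjusted p under 0.05 from limma. These were Gfap (log2 fold change 0.85), the glial filament protein, and Pdgfra (0.40), while Aldh1l1 had -0.31. The other probe sets of Gfap had -0.25 and 0.48, and that of Pdgfra had 0.53. The astrocyte list had medians of 0.28, 0.23 and 0.31 in pairs 1 to 3. Its sums were 6015 to 6894 in crush eyes and 4953 to 6030 in control eyes. What part these cells had in the Mycbp2 values was not tested.

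The brighter probe sets of Mycbp2 did not share this difference. The brightest (1454900_s_at) was at 6215, 4643 and 5810 in crush eyes and 5809, 5926 and 5102 in control eyes, and its log2 fold change was -0.02 (standard error 0.17, adjusted p = 0.977 from limma). The next (1434937_at) was at 5003, 5266 and 5088 in crush eyes and 4903, 5118 and 4886 in control eyes, a log2 fold change of 0.04 with a 95% interval of -0.29 to 0.38. Crush was higher in each pair for this probe set, by 0.03 to 0.06 on the log2 scale. The third (1434274_at) had 1807, 946.9 and 1357 in crush eyes and 1642, 1609 and 1253 in control eyes. Its log2 fold change was -0.17, with crush eye 2 the lowest array and pairs 1 and 3 above 0. Of the dimmer probe sets, 1442858_at had 280.4, 311.9 and 312.6 in crush eyes and 223.2, 279.8 and 299.8 in control eyes, a log2 fold change of 0.18 with overlap of the groups. The dimmest (1458870_x_at) had 132.9, 122.0 and 180.9 in crush eyes and 146.4, 128.4 and 123.0 in control eyes, a log2 fold change of 0.11 that came with a difference above 0 in pair 3 alone. Within arrays, the log2 difference of 1447150_at less that of 1434937_at was 0.28, 0.88 and 0.95 in pairs 1 to 3, and that of 1445340_at less the same was 0.53, 0.92 and 0.57. An exact permutation test over the pairs gave p = 0.25 for each, the smallest possible. The probe sets 1447150_at and 1445340_at were picked because they passed in these same values, so this test gives no support of its own. Which part of the transcript each probe set reads was not analysed here. In RefSeq's GRCm38.p6 gene list no other listed gene overlaps Mycbp2. Averaged over its 7 probe sets the gene had a log2 fold change of 0.23.

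**Figure D3:**
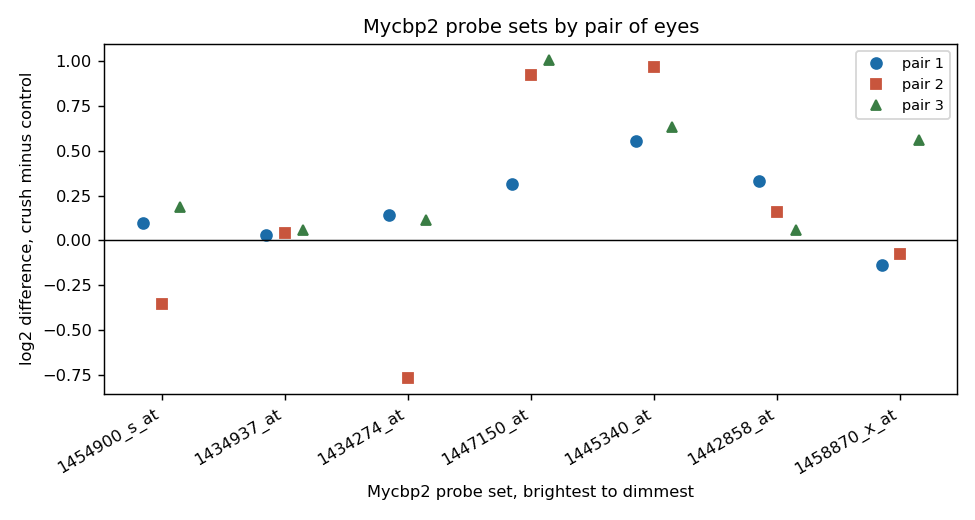
Log2 difference between the crush and the control eye of each pair for the 7 Mycbp2 probe sets, from brightest to dimmest. Symbols stand for the 3 pairs, and the line at 0 is where crush and control are equal. The probe sets 1447150_at and 1445340_at lie above 0 in all pairs, at 0.31 to 1.01 and 0.55 to 0.96, while the brightest probe set lies on both sides of 0.

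Fbxo45 was lower in the crush eye of each pair on its brighter probe set (1452895_at), but by little in pairs 1 and 3. Its intensities were 2827, 2394 and 2446 in crush eyes and 2831, 2998 and 2524 in control eyes, which overlap. The log2 fold change was -0.12 (standard error 0.15, adjusted p = 0.815 from limma), and without pair 2 it was -0.02. The dimmer probe set (1428742_at) had 286.4, 279.8 and 170.1 in crush eyes and 251.5, 292.3 and 244.1 in control eyes, a log2 fold change of -0.13, in which crush eye 3 was the lowest array.

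Ube4b, which neighbours Nmnat1 in the genome, was at 2114, 1601 and 1774 in crush eyes and 1847, 1891 and 1893 in control eyes on its brightest probe set (1448410_at). Crush eye 1 was above all control eyes and the other 2 below them. The log2 fold change was -0.05 (standard error 0.15, adjusted p = 0.944 from limma), with a 95% interval of -0.44 to 0.34. Its second probe set (1444465_at) had 310.9, 393.3 and 275.1 in crush eyes and 329.4, 350.3 and 397.4 in control eyes, a log2 fold change of -0.15, with crush eye 3 the lowest array. The dimmest (1432499_a_at) had 119.2, 126.3 and 117.5 in crush eyes and 120.8, 112.9 and 105.0 in control eyes, a log2 fold change of 0.10 with overlap of the groups. In the GRCm38.p6 gene list 2 genes lie between Ube4b and Nmnat1, of which 1 (Rbp7) is protein coding. The log2 difference of Nmnat1 less that of Ube4b was -0.22, -0.55 and -0.18 in pairs 1 to 3 (exact permutation test, two-sided, p = 0.25, the smallest possible).

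Across the group, 5 of the 20 tested probe sets were higher in all 3 pairs (17.6% of all tested probe sets), 3 were lower in all 3 (14.2%) and 12 were mixed. The 5 were 4 for Mycbp2 and that of Sarm1. Over the 8 genes the pairs had medians of 0.05, -0.30 and 0.04, in the order of pairs 1 to 3, beside 0.01, -0.10 and 0.04 over all genes. In pair 2, which holds the array of crush eye 2, 7 of the 8 were lower, against 9229 of all 15103 genes.

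Other genes of NAD metabolism, for its synthesis, transport and conversion to NADP and for the removal of nicotinamide or NADH, were taken from a list of 19, of which 13 could be tested by their brightest probe set. By limma none had an unadjusted p under 0.05 in either direction, where 2.76% of all genes did so as higher and 2.27% as lower. Of the list 9 were above 0 and 4 below, with a median log2 fold change of 0.11, against -0.02 over all genes and 45.7% above 0. Nadk2, the mitochondrial kinase that turns NAD into NADP, had 1509, 1715 and 1858 in crush eyes and 1488, 1176 and 1071 in control eyes. The groups did not overlap, which was the case, with crush eyes higher, for 860 of all 15103 genes. In pair 1 the difference was 0.02 on the log2 scale, and the log2 fold change was 0.45 (adjusted p = 0.642 from limma). Without pair 3 this was 0.28, and its other probe sets had log2 fold changes between -0.21 and 0.53. Nudt12, a hydrolase of NADH, had 991.9, 941.5 and 1191 in crush eyes and 801.6, 861.7 and 701.7 in control eyes, with a log2 fold change of 0.40 that lay between 0.22 and 0.54 when a pair was left out. Afmid, of the synthesis of NAD from tryptophan, had -0.80, with 75.0, 19.1 and 60.4 in crush eyes and 74.1, 89.9 and 68.8 in control eyes, with crush eye 2 far below the other arrays. Without pair 2 this was -0.085. Ido1, the first enzyme of that route outside the liver, had -0.41, with crush eye 2 again the lowest array, and without pair 2 it had -0.043.

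Of 14 listed genes for enzymes that consume NAD, 13 were tested. Sirt7, a nuclear sirtuin, was higher by the unadjusted p of limma, and no gene of the list was lower, against 2.76% and 2.27% of all genes. It had 381.5, 386.0 and 477.0 in crush eyes and 294.3, 278.9 and 393.3 in control eyes, a log2 fold change of 0.37 (unadjusted p = 0.039, adjusted p = 0.642 from limma). The groups overlapped, and Sirt7 was also in the list of changed genes that the study drew from these samples. Without each pair in turn the unadjusted p of Sirt7 from limma did not pass the threshold. Of the list 10 genes were above 0 and 3 below, with a median of 0.11, and 5, 6 and 0 of the 13 were lower in pairs 1, 2 and 3, where the medians were 0.04, 0.06 and 0.24. Over all 15103 genes 7079, 9229 and 6460 were lower in these pairs. Of the 13 genes 6 were higher in all pairs, against 15.2% of all genes. Among them Parp3 (log2 fold change 0.19), Parp1 (0.19), the sensor of DNA breaks, and the mitochondrial sirtuin Sirt3 (0.17) did not pass. Without the array of crush eye 3 and unpaired Parp3 had 0.034, without pair 3 Parp1 had 0.082, and without pair 2 Sirt3 had 0.092. The other probe sets of Parp1 had log2 fold changes between -0.11 and 0.53.

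Of 20 listed kinases and partners of axon degeneration, 17 were tested, with 9 above 0, 8 below and a median of 0.02. Mapk8ip3, also known as JIP3, is a scaffold of JNK on axonal transport motors. It was the 1 gene of the 17 that passed by the unadjusted p of limma, as higher, against 2.76% of all genes. It had 546.2, 520.6 and 506.3 in crush eyes and 354.9, 332.4 and 465.1 in control eyes. All crush eyes were above all control eyes, which was the case for 860 of all 15103 genes. The log2 fold change was 0.46 (unadjusted p = 0.0388, adjusted p = 0.642 from limma). Its other probe sets had -0.59 and -0.02, and averaged over its probe sets the gene had -0.05. Without pair 1 or pair 2 Mapk8ip3 did not pass, with log2 fold changes of 0.38 and 0.37. Mapk8ip1, the related scaffold JIP1, had 0.48 with no difference in pair 1, and without the array of crush eye 3 and unpaired it had 0.19. Map3k12, the kinase DLK that signals axon injury to the soma, had 0.15 and 0.10 to 0.25 in the pairs. Without the array of crush eye 3 and unpaired it had 0.019. Its other probe sets had 0.17 and 0.64, and averaged over its probe sets the gene had 0.32. Zdhhc17, a palmitoyl transferase that acts on NMNAT2 and DLK, had -0.16, and -0.045 without pair 2.

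**Figure D4:**
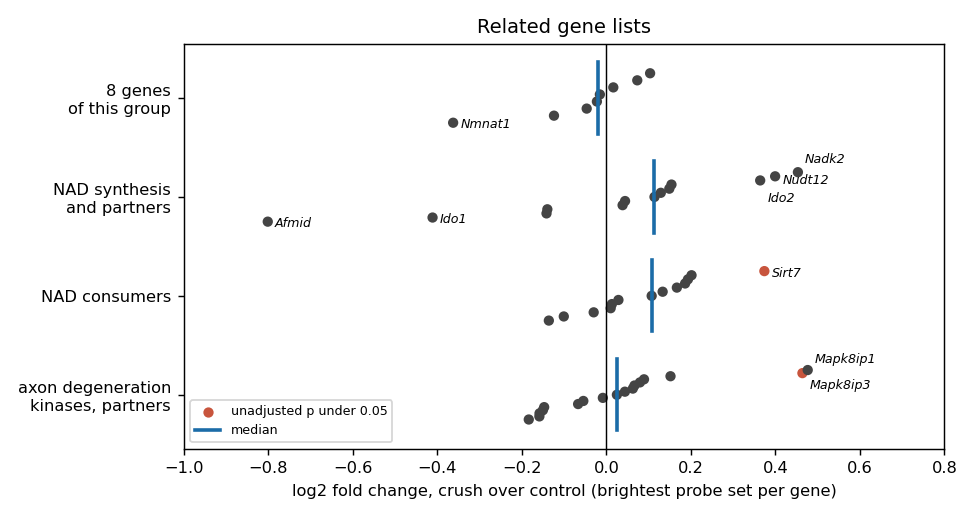
Log2 fold change, crush over control, by the brightest probe set of each gene, for the 8 genes and for the lists of NAD synthesis and its partners (13 genes), NAD consumers (13) and axon degeneration kinases and partners (17). Points are genes, whose height within a list carries no value, and vertical bars are medians, at -0.02, 0.11, 0.11 and 0.02. Sirt7 and Mapk8ip3 are the points past an unadjusted p under 0.05.

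The genes whose intensities ran most like those of Sarm1 over the 6 arrays were Fbxw2 (Pearson's r = 0.980), Trpv2 (0.975) and Trap1 (0.975), out of 15102 genes compared. Those most like Nmnat2 were Leng1 (r = 0.996), Zfyve9 (0.981) and Alg14 (0.967). The arrays were taken to share animals in pairs. As 43 genes reached an r over 0.9 with Sarm1 and 106 with Nmnat2, these are descriptions of 6 arrays.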

How the data were processed

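Amplified RNA from the laser-captured ganglion cell layer was hybridized to Affymetrix Mu430 v2.0 arrays. The authors deposited an intensity for each probe set on a linear scale, made in dChip with the PM/MM model after invariant-set normalization. Here intensities under 16 were raised to 16 and log2 transformed. Probe sets were tested if they averaged 40 or more over the arrays, which left 33169. The test was limma 3.58.1 in R 4.3.3, blocked by eye number, and p-values were adjusted over all of these by the Benjamini-Hochberg procedure. The controls are contralateral eyes, so equal eye numbers were taken as pairs, though the sample titles give an eye number and no animal. Residuals of crush and control eyes with the same number correlated at 0.154, 0.125 and 0.297. Those with different numbers correlated at -0.264 to 0.131, which overlaps the former, so the correlations do not settle the pairing. Exact permutation tests used scipy 1.17.1. Symbols came from the platform annotation, updated by gene identifier, and 34945 probe sets had 1 symbol, 932 several and 9160 none. The brightest probe set stood for a gene in lists. All probe sets of the 8 genes were named, with the 4 genes of smallest p in each list and the 3 genes most correlated with Sarm1 and with Nmnat2. Members and lists were chosen with earlier results of these data known. The fit was checked on simulated arrays only for the recovery of known changes. These had independent noise, no pair effect and no array that stood apart, so the check does not bear on the calls here. Precision is limited by the number of arrays, which carry no depth. In limma the spread of each probe set over these eyes is drawn toward a value estimated from all tested probe sets. Its standard errors, intervals and p-values therefore rest in part on other probe sets. They take the spread between eyes from only 3 eyes per group.

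The alternatives changed the block, floor, filter, scaling, prior, test, arrays and choice of probe set.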

Additional observations from a re-analysis of the deposited data

How the results depend on the processing

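None of the 8 genes passed an adjusted p under 0.05 in any of the 15 alternatives run over probe sets. The 2 Mycbp2 probe sets kept their direction in all 30 values, from 0.54 to 0.96 for 1447150_at and 0.59 to 0.80 for 1445340_at, with adjusted p of 0.527 to 0.845 and 0.539 to 0.845 from limma or the methods' paired t-test. Without the replicate block both still passed by the unadjusted p of limma (0.0161 and 0.0129), and the block changed no call on the 8 genes. The count of 2 was 1 without pair 3 (1445340_at), and 1 to 2 over the pairs left out, as was the count at the study's thresholds. With the methods' paired t-test 2 also passed, but these were 1445340_at and 1434937_at, and 1 met the study's thresholds. Over all probe sets, the unadjusted count of 2546 was 1671 with that test and 1551 to 2696 with a pair left out, and the count of 1036 at the study's thresholds was 321 and 494 to 1340. The count of 0 by adjusted p was 1 with limma's intensity trend and robust settings.

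Of 128 values for the brightest probe sets 13 changed sign. With a pair left out Nmnat2 had -0.015 to 0.15, Nmnat3 -0.14 to 0.17, Nampt -0.17 to 0.14, Mycbp2 -0.13 to 0.14 and Ube4b -0.17 to 0.050. Without crush eye 2 and unpaired, Nampt had 0.0065, Mycbp2 0.10 and Ube4b 0.045, and without crush eye 3 Nmnat3 had -0.17. Averaged over probe sets, Nmnat3 had -0.11, Nampt 0.038, Mycbp2 0.23 and Mapk8ip3 -0.047, and with quantile normalization Mycbp2 had 0.022. Sarm1, Nmnat1 and Fbxo45 did not change sign under any alternative run. Without the replicate block the unadjusted counts were 2 for NAD synthesis and its partners and 0 for NAD consumers. For NAD synthesis and its partners (0 in the report) the count was 1 with no intensity filter, with equal medians and with the methods' t-test, 2 with the intensity trend, and 0 to 1 with a pair left out. For NAD consumers (1) it was 0 with quantile normalization or equal medians and 0 with any pair left out. For kinases and partners (1) it was 0 with a floor of 64, quantile normalization, equal medians or averaged probe sets, 2 with log2(intensity + 16) or the intensity trend, and 0 to 1 with a pair left out. The 3 probe sets of Sarm1 and Nmnat1 that averaged under 40 had too low a signal for a comparison.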
